A study of Homo sapiens with 12 samples.

Results

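The departure of a drug combination from the sum of its single-drug effects was measured gene by gene in MyLa, an established cell line of cutaneous T cell lymphoma, by bulk RNA sequencing. For each gene the departure was the log2 change with both drugs minus the log2 change with romidepsin minus the log2 change with afatinib, each against DMSO. All 12 of the 12 libraries entered it, and 16208 of the 59050 gene names in the count table were abundant enough to be tested. The 4 groups of 3 libraries were cells given DMSO alone, 3.2 nM romidepsin, 5.7 uM afatinib dimaleate, or both drugs at these doses, for 24 h. Every group grew with 20 ng/mL interleukin-2 and held the volume of DMSO that the combination needed. Each drug was used at 1 dose and 1 time in 1 cell line. Whether a group's libraries stem from separate cultures is not stated in the labels, so the p-values cover the spread among these libraries alone, and that spread may be technical.

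Romidepsin inhibits histone deacetylases, the enzymes that take acetyl groups off histone tails, and histone deacetylase inhibitors are used against cutaneous T cell lymphoma. Afatinib binds covalently to the kinase domain of the ERBB receptor family and blocks its signalling. The additive model used here adds the log2 changes, so the fold changes of both drugs multiply. A gene lies beyond the sum when the combination moved it further in the direction of the sum. It lies short of the sum when the combination moved it less far, and opposite to the sum when the combination moved it the other way.

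Libraries held 8972228 to 12696653 counts, and 3 counts stood for 0.229 to 0.344 CPM, the unit of counts scaled to a common library size that is used throughout. Mitochondrially encoded transcripts took 10.7% to 14.8% of the counts. Of the T cell markers, CD3D, CD3G, CD247, TRAC and CD2 were counted in all 12 libraries, whereas CD3E had at most 4 counts and CD4 and LCK at most 1. The keratinocyte keratin KRT5 had 126 counts in afatinib replicate 3, 94 and 59 in DMSO replicates 2 and 1, 43 in combination replicate 1 and at most 1 elsewhere. None of the 9 tested of 20 keratinocyte markers had a called departure by edgeR with all libraries. Without combination replicate 1, 2 of 9 tested were called lower. With all libraries limma-voom called 1 lower and DESeq2 called 1 higher. The summed level of all 20 was 221 to 277 CPM with DMSO, 149.7 to 162 with romidepsin, 199.95 to 237 with afatinib and 139 to 159 with both drugs. Of 11 myeloid markers 3 were tested and called, CD14 higher (2.46) and CSF1R and ITGAM lower (-0.81 and -1.003). The CSF1R call was lost without the 4 libraries with keratin reads (-0.76). The CD14 call was lost at a threshold of 0.01 and when DMSO replicate 1, romidepsin replicate 1 or any of several other single libraries was left out. CD14 had at most 4 counts in every library outside the combination group. The summed level of all 11 was 30.8 to 37.1 CPM with DMSO, 37.8 to 44.7 with romidepsin, 34.0 to 35.8 with afatinib and 21.8 to 23.4 with both. Of 12 fibroblast and endothelium markers 3 were tested and COL3A1 was called lower (-0.46). That call was lost without combination replicate 3 and without those 4 libraries. It was also lost with no filter beyond 1 count and at a threshold of 0.01. The summed level of all 12 was 174 to 199 CPM with DMSO, 26.9 to 32.6 with romidepsin, 98.4 to 103 with afatinib and 14.97 to 17.5 with both. Of 10 B cell markers 3 were tested and CD79A was called higher (1.13), at summed levels of 3.85 to 6.66, 5.38 to 9.02, 2.65 to 3.13 and 4.28 to 5.23 CPM in the same order. The CD79A call was lost at a threshold of 0.01 and without the 4 libraries with keratin reads. It was also lost without DMSO replicate 2, romidepsin replicate 3, afatinib replicate 2 or afatinib replicate 3. The part of these markers in other results was not tested.

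Short promoter stretches from genes of 3 programmes whose departures are described below are shown here, because each programme has a well-known sequence element. They are the 250 bases before the RefSeq start on GRCh38.p14, read 5' to 3' on the gene's strand, with the element in capitals. ISG15 (chr1:1013247-1013496, plus strand) and IFIT3 (chr10:89327747-89327996, plus strand) are interferon-stimulated genes, and the capitals mark the core of the interferon-stimulated response element, which is GAAA, any 2 bases and GAAA, on either strand. ASNS (chr7:97872409-97872658, minus strand) and ATF3 (chr1:212565157-212565406, plus strand) are targets of the stress factor ATF4, and the capitals mark the C/EBP-ATF response element, TGATGNAAN, on either strand. CALR (chr19:12938359-12938608, plus strand) and XBP1 (chr22:28800570-28800819, minus strand) belong to the unfolded protein response of the endoplasmic reticulum, and the capitals mark the endoplasmic reticulum stress element, which is CCAAT, any 9 bases and CCACG, on either strand.
ISG15: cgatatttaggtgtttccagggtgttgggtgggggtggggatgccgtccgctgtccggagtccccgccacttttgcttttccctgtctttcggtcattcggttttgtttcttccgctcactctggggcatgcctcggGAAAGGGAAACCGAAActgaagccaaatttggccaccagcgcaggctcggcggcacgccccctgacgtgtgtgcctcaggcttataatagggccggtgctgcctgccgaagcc
IFIT3: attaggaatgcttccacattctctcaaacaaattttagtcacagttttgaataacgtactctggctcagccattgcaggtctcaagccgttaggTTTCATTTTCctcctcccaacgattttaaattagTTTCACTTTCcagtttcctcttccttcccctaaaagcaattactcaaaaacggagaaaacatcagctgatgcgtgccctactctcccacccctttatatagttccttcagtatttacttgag
ASNS: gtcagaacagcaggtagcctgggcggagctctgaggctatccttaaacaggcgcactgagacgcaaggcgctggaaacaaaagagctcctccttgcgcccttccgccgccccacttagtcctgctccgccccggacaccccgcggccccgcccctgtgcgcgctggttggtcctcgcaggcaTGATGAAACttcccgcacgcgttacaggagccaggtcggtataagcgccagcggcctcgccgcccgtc
ATF3: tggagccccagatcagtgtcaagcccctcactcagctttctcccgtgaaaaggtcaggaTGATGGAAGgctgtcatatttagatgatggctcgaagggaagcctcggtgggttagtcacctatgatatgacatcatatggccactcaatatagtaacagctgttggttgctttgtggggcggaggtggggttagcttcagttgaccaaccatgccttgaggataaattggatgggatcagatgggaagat
CALR: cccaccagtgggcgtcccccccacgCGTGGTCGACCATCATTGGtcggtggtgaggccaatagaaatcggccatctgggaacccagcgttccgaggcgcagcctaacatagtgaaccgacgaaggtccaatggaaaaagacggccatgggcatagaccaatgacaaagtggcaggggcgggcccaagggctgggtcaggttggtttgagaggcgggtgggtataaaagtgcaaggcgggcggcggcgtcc
XBP1: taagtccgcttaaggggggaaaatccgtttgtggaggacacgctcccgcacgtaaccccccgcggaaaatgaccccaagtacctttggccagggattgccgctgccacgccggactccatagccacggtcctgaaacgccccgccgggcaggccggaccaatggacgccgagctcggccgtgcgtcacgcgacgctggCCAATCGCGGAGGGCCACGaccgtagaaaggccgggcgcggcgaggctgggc

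The combination departed from the sum in 4898 genes, which was 30.2% of those tested (edgeR quasi-likelihood test, adjusted p below 0.05, here named a call). More genes lay below the level of the sum than above it, with 3003 lower (18.5%) and 1895 higher (11.7%), so that 61.3% of the calls were lower. A departure of at least 2-fold was found in 450 higher and 534 lower genes. The median departure over all tested genes was -0.06, and 11310 genes (69.8%) had no call. Of the called genes, 1586 (9.79% of those tested) lay beyond the sum, 1126 (6.95%) short of it, 523 (3.23%) were back at a level not called against DMSO, and 174 (1.07%) were opposite to the sum. The sum itself was called higher than DMSO in 26.3% and lower in 27.9% of the tested genes. For the remaining 1489 departed genes (9.19%) the sum was not called. The sum and the departure are made from the same libraries, with opposite signs for DMSO and the single drugs, so an error in 1 library moves both and the classes are a description.

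**Figure D1:**
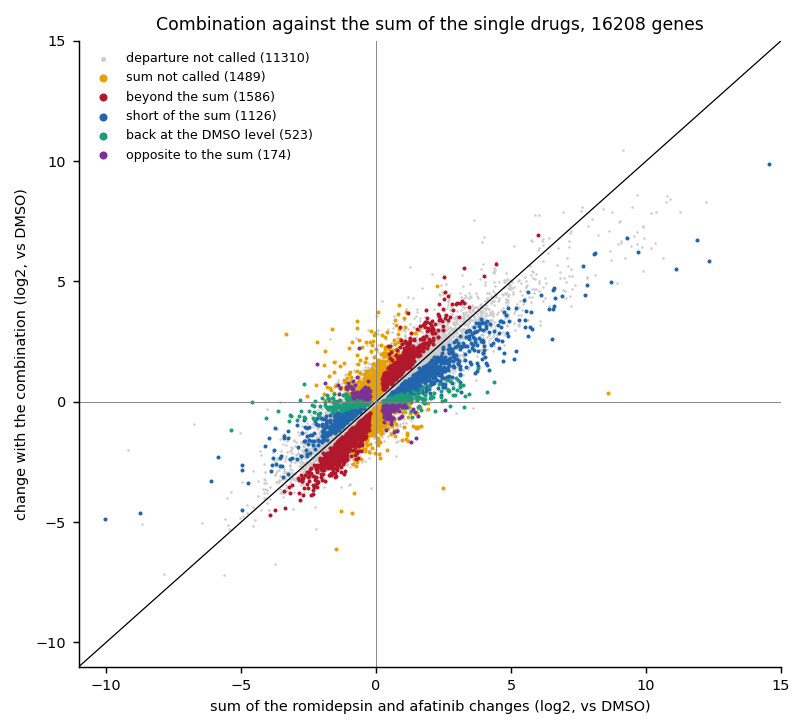
Each point is a tested gene, with the sum of the romidepsin and afatinib log2 changes on the x axis and the log2 change with both drugs on the y axis, both against DMSO. The diagonal is an additive effect. The 1586 genes beyond the sum lie further from 0 than the diagonal, the 1126 genes short of it lie nearer to 0, and the 174 opposite genes lie in the quadrants where the signs differ.

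Genes beyond the sum were mostly lower ones, with 1098 lower and 488 higher. In 952 genes (5.87%) the departure was higher and the combination lay above all 3 other groups by the test, and in 1577 genes (9.73%) it was lower and the combination lay below all 3. Neither drug alone was called in 4010 genes. Of these, 277 had a higher and 277 a lower departure, and the combination itself was called above DMSO in 242 and below it in 239.

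The departures differed with what the single drugs did. Of 1574 genes that both drugs raised, 593 (37.7%) departed lower and 129 (8.20%) higher. Of 1988 genes that both lowered, 497 (25%) departed lower, so further down, and 349 (17.6%) higher. Where romidepsin raised and afatinib lowered a gene (835 genes), 299 (35.8%) departed higher and 83 (9.94%) lower. Where romidepsin lowered and afatinib raised a gene (895 genes), 369 (41.2%) departed lower and 61 (6.82%) higher. In both opposed patterns the more frequent departure had the sign of the romidepsin change. The single-drug calls use the same libraries as the departure.

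The change that 1 drug made on top of the other could be compared with the change it made alone. Over all tested genes the combination was called above romidepsin in 25.1% and below it in 29.2%, and above afatinib in 33.4% and below it in 35.8%. Afatinib raised 3571 genes (22%) over DMSO, and 1899 of these were also higher with both drugs than with romidepsin. In 620 of the 3571, afatinib made no called difference on top of romidepsin and the departure was lower, and in 372 it lowered the gene instead. Of the 3780 genes (23.3%) that afatinib lowered, 2498 were lowered again on top of romidepsin, 430 had no call there with a higher departure, and 265 were raised. Of the 5039 genes (31.1%) that romidepsin raised, 3964 were also raised on top of afatinib, 368 had no call there with a lower departure, and 204 were lowered. Among its 5100 lowered genes (31.5%) the numbers were 4226, 265 and 135. A difference between the drugs in these shares was not tested.

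Large gains beyond the sum were seen in genes that romidepsin raised and afatinib lowered. NCKAP5L, which encodes a microtubule-binding protein (chromosome 12, 49791146 to 49828750, in GRCh38.p12 coordinates of the count table, as for all genes here), stood at 21.7, 27.5 and 21.8 CPM with DMSO, 116, 116 and 107 with romidepsin, 9.58, 11.6 and 12.05 with afatinib and 304, 293 and 308 with both drugs. All 3 combination libraries lay above the 9 others, and all 3 afatinib libraries lay below them. The sum would have given 52.9 CPM, 5.71-fold below the mean with both drugs (log2 departure 2.50, SE 0.12, adjusted p = 3.82e-21, edgeR). DACT3, a regulator of Wnt signalling, went from 1.47 CPM with DMSO to 31.6 with romidepsin and 70.1 with both, at 0.656 with afatinib (log2 departure 2.31). ICAM5, a neuronal adhesion molecule, and SYN1, the synaptic vesicle protein synapsin, had log2 departures of 2.24 and 1.95. The combination lay above the romidepsin level in ICAM5 and was not called against it in SYN1.

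FASN, the fatty acid synthase gene (chromosome 17, 82078338 to 82098294), stood at 1507, 1684 and 1477 CPM with DMSO, 2269, 1893 and 1947 with romidepsin, 1624, 1697 and 1544 with afatinib and 7819.8, 7153 and 8247 with both drugs. Afatinib libraries overlapped with DMSO, romidepsin libraries lay somewhat above both, and the combination libraries were far above the 9 others. Its mean was 3.65 times the 2123 CPM of the sum (log2 departure 1.87, SE 0.09, adjusted p = 3.99e-21). IL9, a cytokine gene of T helper cells, reached 347, 325 and 351 CPM with romidepsin and 298, 269 and 287 with both drugs, against 14.7, 16.4 and 19.8 with DMSO and 3.32, 4.45 and 4.90 with afatinib. The combination was called below romidepsin alone, and the departure of 1.73 came with an afatinib change of -1.99 alone and -0.26 on top of romidepsin.

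Losses beyond the sum included cytokine and signalling genes. OSM, the gene of the cytokine oncostatin M (chromosome 22, 30262829 to 30266851), stood at 396, 411 and 342 CPM with DMSO, 314, 290.4 and 284 with romidepsin, 209, 222 and 218 with afatinib and 50.7, 46.3 and 45.6 with both drugs. The groups did not overlap, with DMSO highest, then romidepsin, then afatinib and the combination lowest. The mean with both drugs was 3.51-fold below the 167 CPM of the sum (log2 departure -1.81, SE 0.09, adjusted p = 4.32e-21). PRKCE, the protein kinase C epsilon gene, fell to 34.4, 36.7 and 28.8 CPM with both drugs from 247, 228 and 254 with DMSO, where the sum gave 110.1 (log2 departure -1.73). CNR1, the cannabinoid receptor gene, departed by -1.58. PGAP3, an enzyme of lipid anchor remodelling, and UTS2B, a peptide hormone gene, were raised by afatinib and lowered by romidepsin alone, and departed by -1.66 and -1.64. On the scale of CPM differences in place of log2, 192 of the 1098 genes lower beyond the sum had the other sign.

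Genes short of the sum were lower in 740 and higher in 386 cases. HLF, a bZIP transcription factor gene (chromosome 17, 55264960 to 55325187), stood at 1.83, 3.13 and 2.98 CPM with DMSO, 92.9, 109 and 97.0 with romidepsin, 4.79, 7.38 and 6.58 with afatinib and 14.3, 17.8 and 15.97 with both drugs. Romidepsin libraries were far above all others, and the combination libraries lay between them and the afatinib libraries without overlap. The sum would have given 235 CPM, 14.7-fold more than measured (log2 departure -3.88, SE 0.22, adjusted p = 8.02e-19). ABCA13, a lipid transporter gene, and TBL1X, a subunit of a corepressor complex that holds histone deacetylase 3, were raised by both drugs. They departed by -2.88 and -2.48, with the combination not called against romidepsin alone in either.

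Among the higher departures short of the sum, CCL22, a chemokine of the receptor CCR4, had the largest of the genes with at least 5 CPM. It stood at 44.6, 51.6 and 44.2 CPM with DMSO, 2.23, 1.26 and 1.47 with romidepsin, 2.21, 3.03 and 3.61 with afatinib and 2.25, 2.06 and 1.45 with both drugs. DMSO lay above all treated libraries, and the 3 treated groups overlapped. Multiplying both falls would have given 0.104 CPM, which is below the level of 3 counts, so the size of the departure of 4.15 (SE 0.34) rests on a level these libraries cannot count. GSDME, the gene of a pore-forming gasdermin, had the same shape, from 18.5 CPM with DMSO to 1.74, 2.75 and 1.87 in the treated groups (log2 departure 2.81). Its additive level lay within the 0.229 to 0.344 CPM that 3 counts stood for, so the size of this departure is uncertain too. Taking the lowest of these library values (0.229 CPM), the additive level was under 3 counts in 7 genes higher and short of the sum. The same held for 15 higher genes back at the DMSO level. MEGF6 and EVL, an actin regulator, were less lowered by the combination than by romidepsin alone, with log2 departures of 2.69 and 1.46.

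In 523 genes the called departure ran against a called sum, and the combination was not called against DMSO. A missing call does not show equal levels. EGR1, an immediate early transcription factor gene downstream of growth factor signalling (chromosome 5, 138465479 to 138469303), stood at 25.6, 21.2 and 18.7 CPM with DMSO, 30.9, 27.3 and 39.4 with romidepsin, 4.15, 2.37 and 2.65 with afatinib and 21.7, 19.6 and 26.5 with both drugs. Afatinib libraries lay below the 9 others, and the DMSO and combination libraries overlapped. The sum gave 4.55 CPM (log2 departure 2.31, SE 0.23, adjusted p = 1.18e-10). IL6, an inflammatory cytokine gene, stood at 13.3, 13.6 and 14.8 CPM with romidepsin, and its other 9 libraries lay between 1.84 and 3.28. Afatinib alone was not called, and the mean with both drugs, 2.67 CPM, lay between those of DMSO and afatinib (log2 departure -2.47). GSDMB, another gasdermin gene, and CELSR2, a cadherin of cell polarity, were lowered by the sum and back at the DMSO level with both drugs, with departures of 1.42 and 1.86.

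The 174 genes opposite to the sum had 75 higher and 99 lower departures. Their number was 105 without DMSO replicate 1, 36 without the 4 libraries with keratin reads and 1116 by the signs of the estimates alone. SCG2, the gene of the granule protein secretogranin II (chromosome 2, 223596940 to 223602361), stood at 22.9, 17.5 and 17.9 CPM with DMSO, 29.6, 33.8 and 32.1 with romidepsin, 8.85, 6.91 and 7.47 with afatinib and 89.4, 93.6 and 90.1 with both drugs. The combination lay above the 9 other libraries and afatinib below them. Against a sum of 12.7 CPM the combination was 7.17 times higher (log2 departure 2.85, SE 0.15, adjusted p = 6.38e-20). ERF, a repressor of the ETS family controlled by ERK, went from 52.7 CPM with DMSO to 109 with both, and ACHE, the acetylcholinesterase gene, from 25.4 to 46.6, where the sum pointed down (log2 departures 1.74 and 1.73). SMG1P7 (1.74) is a pseudogene with near-identical copies, and its value is uncertain. TEF, a bZIP factor of the same family as HLF, departed by 1.72.

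In the other direction, KLHDC7B, a kelch repeat gene (chromosome 22, 50546203 to 50551023), stood at 6.75, 6.46 and 8.32 CPM with DMSO, 2.32, 2.64 and 2.12 with romidepsin, 127, 133 and 132 with afatinib and 4.69, 6.03 and 6.26 with both drugs. Afatinib libraries alone were high, and the combination libraries lay between the DMSO and romidepsin ranges without overlap. The sum gave 42.9 CPM, 7.57-fold above the combination (log2 departure -2.89, SE 0.25, adjusted p = 4.72e-13). ITGAX, an integrin gene of myeloid and some lymphoid cells, was also raised by afatinib and lowered by romidepsin, at 21.5 CPM with DMSO, 11.3 with romidepsin, 68.8 with afatinib and 9.32 with both (log2 departure -1.98). SAMD9L and IFI35, both inducible by interferon, were raised by afatinib alone, not called with romidepsin and below DMSO with both (-1.89 and -1.84).

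The 1489 departed genes whose sum was not called were higher in 716 and lower in 773 cases. SLC2A4, the gene of the insulin-responsive glucose transporter, stood at 7.17, 6.16 and 6.31 CPM with DMSO, 29.4, 31.3 and 31.8 with romidepsin, 1.198, 1.80 and 1.85 with afatinib and 44.5, 45.4 and 46.4 with both drugs. Romidepsin raised it and afatinib lowered it, giving a sum of 7.60 CPM near DMSO, but the combination libraries lay above all others (log2 departure 2.57, SE 0.22, adjusted p = 5.05e-13). HES7, a Notch pathway repressor, and IZUMO4, a gene of the sperm-egg fusion family, departed by 2.36 and 2.21 in the same way. DTX3L, a ubiquitin ligase of the DNA damage response and partner of PARP9 (chromosome 3, 122564338 to 122575203), stood at 20.6, 12.8 and 15.9 CPM with DMSO, 17.96, 15.7 and 18.4 with romidepsin, 14.8, 16.3 and 14.9 with afatinib and 4.06, 3.21 and 4.05 with both drugs. The 9 libraries without the combination overlapped between 12.8 and 20.6 CPM, and neither drug alone was called. With both drugs it was 4.29-fold under the sum (log2 departure -2.10, SE 0.22, adjusted p = 1.01e-10). PAK3, a kinase gene, ZBED2, a transcription factor gene of T cells and epithelia, and USP40, a deubiquitinase gene, departed by -1.83, -1.80 and -1.66. DLGAP1-AS1 (-1.76) is an antisense gene, and the counting did not separate strands.

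**Figure D2:**
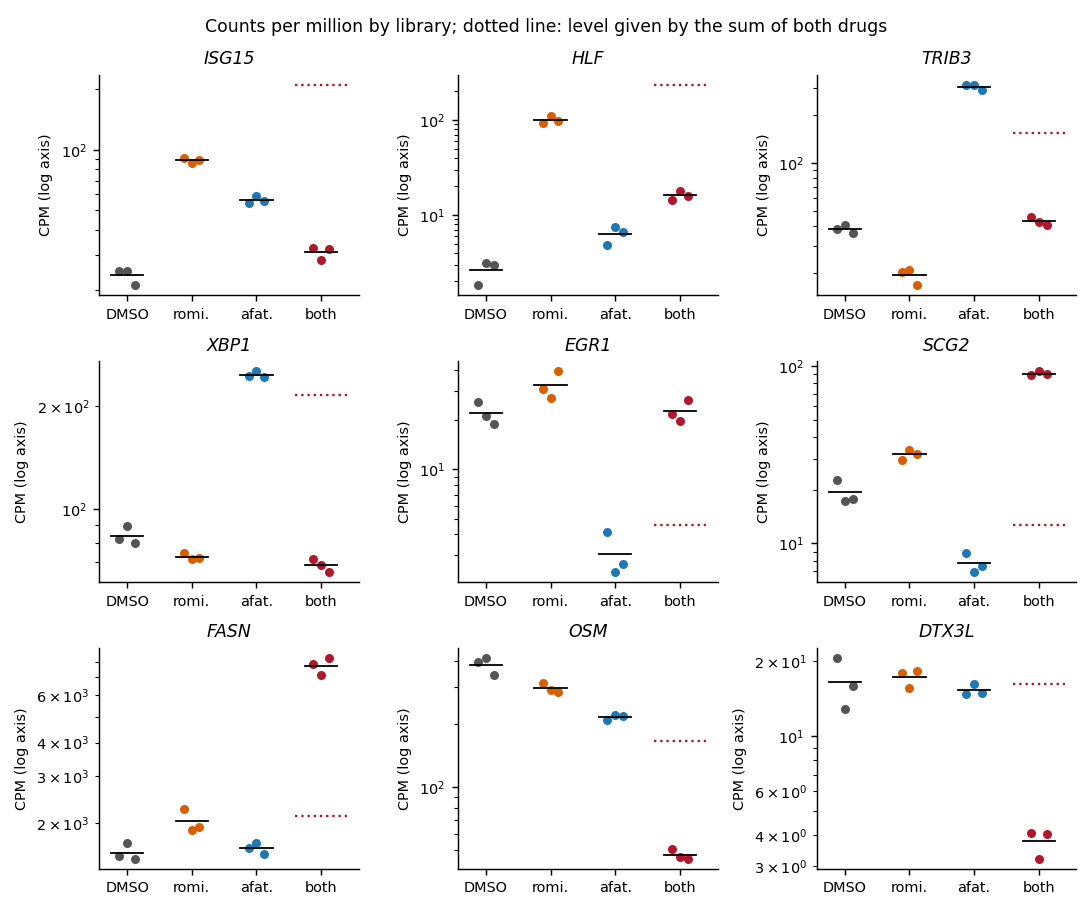
Levels in CPM on a log axis for 9 genes, with 1 point per library, a bar at the group mean and a dotted line at the level that the sum of both drugs gives. ISG15, HLF, TRIB3, XBP1, OSM and DTX3L have all combination libraries under the dotted line, and EGR1, SCG2 and FASN have all of them over it.

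Gene lists of known pathways were then read against the background of 11.7% higher and 18.5% lower calls. Their members had earlier been chosen with results of these data known, so counts and medians are given without a test of the list. For the single drugs and the combination, the corresponding shares of all tested genes were 31.1% raised and 31.5% lowered by romidepsin, 22% and 23.3% by afatinib, and 37.2% and 37.1% by both.

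**Figure D3:**
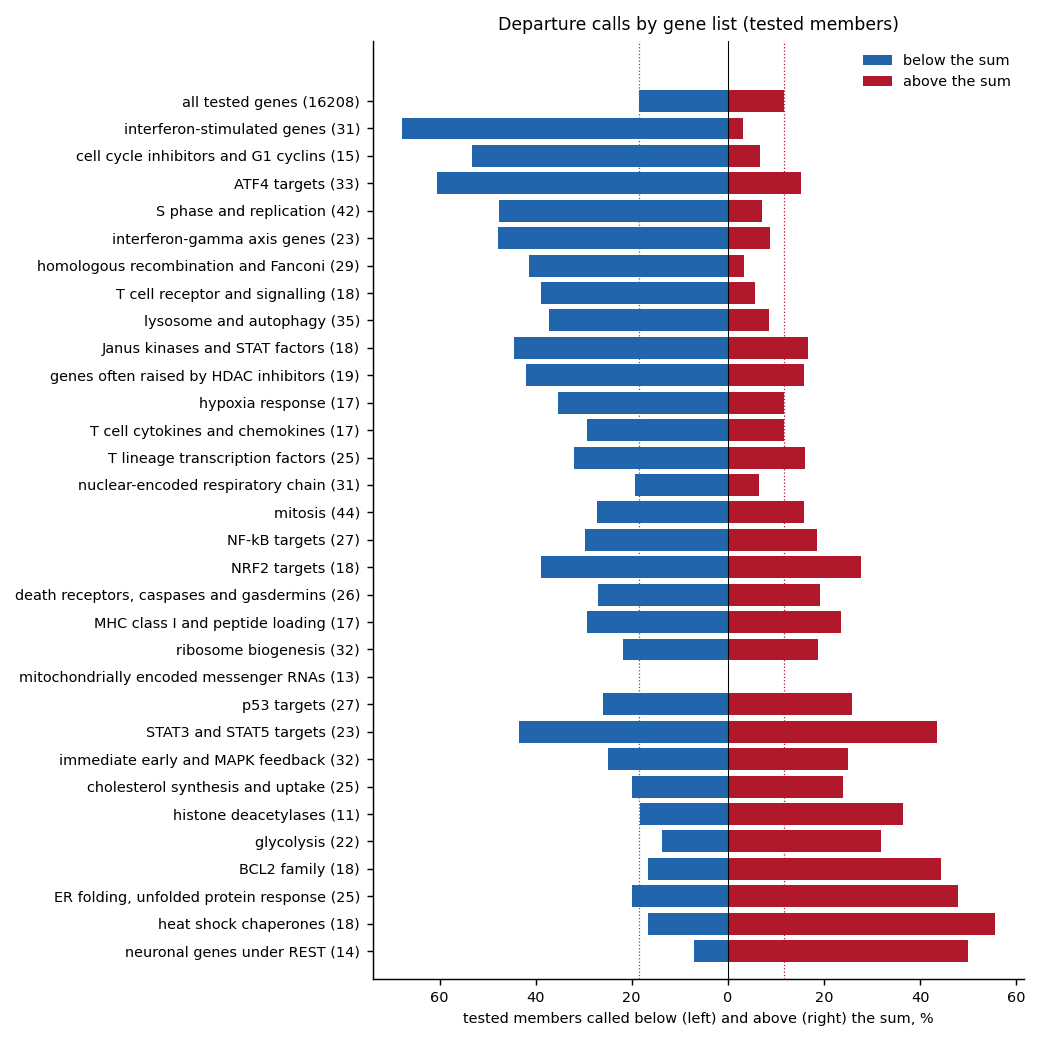
Share of tested members with a called departure, below the sum to the left and above it to the right, for every pathway list with at least 10 tested members (number in brackets), with dotted lines at the shares of all tested genes. Interferon-stimulated genes have the longest bar to the left, with 21 of 31 below the sum. Heat shock chaperones have the longest bar to the right, with 10 of 18 above it.

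Of the lists with at least 10 tested members, interferon-stimulated genes had the highest share of lower departures. Of 42 genes 31 were tested, 21 departed lower, 1 higher and 9 had no call, and the median departure was -1.10 (all genes -0.06). The tested members were raised by romidepsin in 13 cases and lowered in 8, and by afatinib in 17 and 9. With both drugs 11 were above DMSO and 12 below it. Afatinib had raised 15 of the 21 that departed lower, against 1248 of the 3003 lower genes over all tested. It had raised 17 of the 31 tested members, and its change enters the departure with a minus sign.

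Among the antiviral effectors, ISG15, a ubiquitin-like protein that is attached to other proteins (chromosome 1, 1001138 to 1014540), stood at 24.9, 25.04 and 21.3 CPM with DMSO, 90.6, 86.4 and 89.4 with romidepsin, 54.5, 59.2 and 55.5 with afatinib and 32.5, 28.3 and 32.2 with both drugs. Romidepsin libraries were highest, afatinib libraries next, and the combination libraries were above DMSO but below both single drugs, with no overlap between groups. The sum would have given 211 CPM, 6.79-fold more than measured (log2 departure -2.77, SE 0.12, adjusted p = 1.44e-23). IFIT3, which binds foreign RNA with its relatives, stood at 26.4, 22.7 and 24.7 CPM with DMSO, 31.1, 30.5 and 27.8 with romidepsin, 68.4, 66.9 and 78.1 with afatinib and 24.0, 26.1 and 22.0 with both drugs. Afatinib libraries alone were clearly high, and the combination overlapped with DMSO (log2 departure -1.84, SE 0.13, adjusted p = 1.57e-15). Its relatives IFIT1, IFIT2 and IFIT5 departed by -1.81, -1.89 and -2.14, OASL by -2.58, the antiviral radical SAM enzyme RSAD2 by -1.94 and the RNA sensor IFIH1 by -1.14.

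Some members that both drugs lowered went further down than the sum. MX2, a dynamin-like restriction factor, had means of 102 CPM with DMSO, 41.5 with romidepsin, 66.6 with afatinib and 15.6 with both, and OAS2, an enzyme that makes the activator of RNase L, had 55.5 CPM with DMSO, 17.99 with romidepsin, 37.7 with afatinib and 7.26 with both. Their log2 departures were -0.80 and -0.75. PARP9, the partner of DTX3L, departed by -1.10. IRF7, BST2 and IFITM1 had no called departure, at -0.43, -0.26 and 0.21. BST2 passed the threshold under 6 alternatives and IFITM1 under 2.

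STAT2, a transcription factor of the type I interferon response, stood at 39.2, 37.9 and 41.6 CPM with DMSO, 94.8, 101 and 95.03 with romidepsin, 34.0, 29.5 and 31.1 with afatinib and 142, 139 and 137 with both drugs. The combination was highest, above romidepsin in every library, and this gene is the 1 member of the list above the sum (log2 departure 0.85, SE 0.10, adjusted p = 4.92e-09). Among 23 tested genes of the interferon-gamma axis, 11 departed lower and 2 higher (median -0.56). The apolipoprotein L genes APOL1, APOL2, APOL3 and APOL6 departed by -1.45, -1.48, -1.55 and -0.87, and the chemokine CXCL10 by -1.52. NLRC5, the activator of MHC class I genes, was above the sum (0.93), as was the feedback inhibitor SOCS3 (0.72).

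The response to amino acid shortage and other stress that runs through the factor ATF4 was raised by afatinib in most of its tested genes, and fell short of the sum in 13 of them. Of 33 tested ATF4 targets (of 40), afatinib raised 29 and lowered 0, whereas romidepsin raised 9 and lowered 11. The departure was lower in 20 and higher in 5, with a median of -0.71. All 20 lower ones were among the 29 that afatinib raised (over all tested genes, 1248 of 3003 lower ones). With 29 of 33 members raised, against 22% of all tested genes, this overlap was nearly fixed beforehand. The afatinib change also enters the departure with a minus sign. Median changes were 1.51 with afatinib and 0.94 with both drugs.

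TRIB3, a pseudokinase that feeds back on ATF4 (chromosome 20, 362835 to 397559), stood at 38.2, 40.5 and 36.1 CPM with DMSO, 20.5, 21.0 and 16.9 with romidepsin, 311, 314 and 289.9 with afatinib and 45.3, 42.0 and 40.7 with both drugs. Afatinib libraries were far above the rest and romidepsin libraries lowest, and with both drugs the gene was back near DMSO, just above its highest library and without a call. The sum gave 155 CPM (log2 departure -1.86, SE 0.11, adjusted p = 7.09e-18). DDIT4, an inhibitor of the growth kinase mTORC1, stood at 72.8, 94.6 and 83.0 CPM with DMSO, 775, 656 and 702 with romidepsin, 148, 165 and 146 with afatinib and 345, 318 and 365 with both drugs. It was highest with romidepsin, and with both drugs it lay between the single-drug groups, 3.799-fold below the sum of 1302 CPM (log2 departure -1.93, SE 0.10, adjusted p = 2.44e-18). CTH, which makes cysteine, departed by -1.997, the peptide hormone gene ADM2 by -1.68, the factor CEBPB by -1.19 and the phosphatase subunit PPP1R15A by -0.45. The tryptophan and serine transfer RNA ligases WARS and SARS departed by -1.12 and -1.23, and SARS ended below DMSO.

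A few ATF4 targets went beyond the sum. ASNS, asparagine synthetase (chromosome 7, 97851677 to 97872542), stood at 2.25, 2.02 and 3.07 CPM with DMSO, 2.32, 2.75 and 2.12 with romidepsin, 9.40, 8.90 and 8.67 with afatinib and 25.6, 23.4 and 24.1 with both drugs. The combination lay above all other libraries, the DMSO and romidepsin libraries overlapped, and the mean was 2.76 times the sum (log2 departure 1.49, SE 0.28, adjusted p = 3.79e-05). DDIT3, the death-linked factor CHOP, had means of 5.47 CPM with DMSO, 4.99 with romidepsin, 48.5 with afatinib and 93.2 with both (log2 departure 1.09). CHAC1, which breaks down glutathione, had 3.55 CPM with DMSO, 9.22 with romidepsin, 84.6 with afatinib and 432 with both (0.95), and this call was lost without the 4 libraries with keratin reads (0.61, adjusted p = 0.143). The amino acid carriers SLC7A11, SLC3A2 and SLC7A5 rose with afatinib and with the combination and had departures of 0.06, 0.15 and -0.14, none of them called. ATF4 itself was at 1300.0 CPM with DMSO, 912 with romidepsin, 2298 with afatinib and 1871 with both (0.21, a call lost when any of 4 single libraries was left out).

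Genes of protein folding in the endoplasmic reticulum showed more gains than losses. All 25 were tested, 12 departed higher, 5 lower, and the median was 0.31. HERPUD1, which takes part in the removal of misfolded proteins (chromosome 16, 56932142 to 56944864), stood at 36.9, 36.6 and 36.4 CPM with DMSO, 63.0, 63.7 and 67.5 with romidepsin, 60.4, 59.6 and 60.2 with afatinib and 310.1, 299 and 291 with both drugs. Each single drug lay above DMSO, the single-drug groups lay close together, and the combination was above both, at 2.83 times the sum (log2 departure 1.499, SE 0.09, adjusted p = 1.05e-17). The stress sensor ERN1 had means of 43.2 CPM with DMSO, 86.1 with romidepsin, 70.6 with afatinib and 263 with both (log2 departure 0.91). The chaperones CALR, HSPA5 and HSP90B1, which afatinib alone lowered, were above DMSO with both drugs and departed by 0.93, 0.77 and 0.70.

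XBP1, the transcription factor that ERN1 activates by splicing (chromosome 22, 28794555 to 28800597), was opposite to the sum. It stood at 81.9, 89.5 and 79.5 CPM with DMSO, 74.7, 71.6 and 72.1 with romidepsin, 246, 253 and 243 with afatinib and 71.8, 68.8 and 65.7 with both drugs. Afatinib libraries were high, and the combination libraries overlapped with romidepsin and lay below every DMSO library (log2 departure -1.65, SE 0.09, adjusted p = 1.74e-19). EDEM1, which directs misfolded glycoproteins to degradation, was raised by each drug and lowered by both, with means of 272 CPM with DMSO, 361 with romidepsin, 390.1 with afatinib and 174 with both (log2 departure -1.57). DNAJB9 departed by -0.58, a call that was lost without the 4 libraries with keratin reads (-0.36, adjusted p = 0.279).

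**Figure D4:**
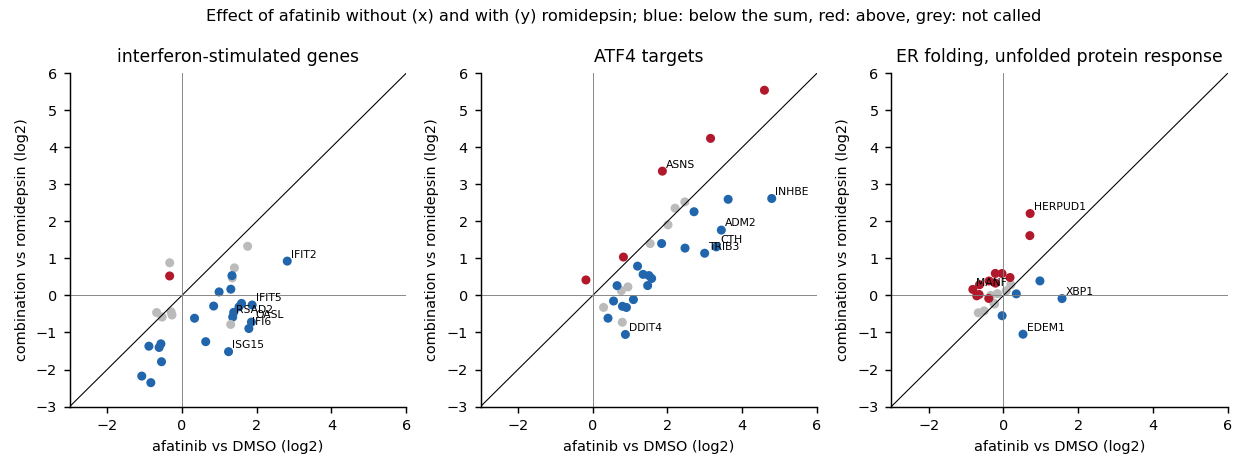
Log2 effect of afatinib alone (x axis) against its effect on top of romidepsin (y axis) for tested members of 3 lists, coloured by the departure call. On the diagonal the effects are equal. Of the interferon-stimulated genes 21 of 31 and of the ATF4 targets 20 of 33 lie called below the diagonal, and of the endoplasmic reticulum list 12 of 25 lie called above it.

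Promoters of these lists held their known elements more often than other promoters did. A match describes letters and is no measured binding. RefSeq promoter windows of 300 bases were found for 10424 of the 16208 tested genes. The interferon element stood in 14 of 21 windows of the interferon list (66.7%) and in 2.95% of the windows of all tested genes (3.65% of all 27305 promoters in the table), and the ISG15 window holds a pair of overlapping matches. It was in 10 of 14 windows of lower members and in 4 of 6 of members without a call. Outside the lists, 22.1% of 271 genes with the element and 22.2% of 9577 without it departed lower. The C/EBP-ATF element was in 7 of 26 ATF4 target windows (26.9%, against 1.73% of tested and 3.67% of all windows). Within the list it was in 3 of 15 lower members, 2 of 5 higher ones and 2 of 6 without a call. Outside the lists 34.2% of 158 genes with it and 22.0% of 9690 without it departed lower. The endoplasmic reticulum element was in 7 of 24 windows of that list (29.2%, against 0.153% of tested and 0.0806% of all windows). There it was in 4 of 11 higher members, 1 of 5 lower ones and 2 of 8 without a call. Among genes outside the lists 9 windows held it, of which 2 departed higher and 0 lower, too few to compare. The ASNS site begins 68 bases before the start, and those of CALR and XBP1 begin 225 and 52 bases before it.

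Of 18 tested cytosolic heat shock chaperones, which refold proteins, 10 departed higher and 3 lower (median 0.32). DNAJB1, which guides HSP70 to its clients (chromosome 19, 14514769 to 14529770), stood at 228, 243 and 209 CPM with DMSO, 759, 726 and 682 with romidepsin, 292, 295 and 282 with afatinib and 2136, 2043 and 2033 with both drugs. The groups did not overlap, in the order DMSO, afatinib, romidepsin and both drugs, and the mean with both was 2.24 times the sum (log2 departure 1.16, SE 0.08, adjusted p = 1.49e-16). HSP90AA1 and HSPH1 were below DMSO with afatinib and above it with both drugs, and departed by 0.78 and 0.94. HSPA8, the constitutive HSP70, and HSF1, the factor that drives the response, departed by -0.32 and -0.62.

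Genes of cell division were already lowered by the single drugs, and part of them fell further than the sum with both. Of 42 tested S phase genes romidepsin lowered 35 and afatinib 18, and 20 departed lower and 3 higher (median -0.35). With a lower departure, the combination lay below all 3 other groups in 17 of the 42, against 9.73% of all tested genes. Of lower departures these were 17 of 20, against 1577 of 3003. MCM7, a subunit of the replicative helicase (chromosome 7, 100092728 to 100101940), stood at 606, 665 and 576 CPM with DMSO, 230.1, 211 and 216 with romidepsin, 446, 482 and 442 with afatinib and 112, 89.1 and 111 with both drugs. The groups were ordered DMSO, afatinib, romidepsin and both without overlap, and the combination was 1.56-fold under the sum (log2 departure -0.65, SE 0.09, adjusted p = 2.41e-07). The helicase subunits MCM2, MCM5 and MCM6 departed by -0.61, -0.72 and -0.85, the origin factor ORC1 by -0.84, and the ribonucleotide reductase subunit RRM1 by -0.70. RRM2, the other subunit, was raised by romidepsin and departed by -0.50. CCNE1, the cyclin of S phase entry, was opposite to a lowered sum (0.90).

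Of 44 mitosis genes 12 departed lower and 7 higher (median -0.15), and with RLE scaling of the libraries the numbers were 9 and 9. FOXM1, the factor that drives mitotic genes, had means of 232 CPM with DMSO, 90.1 with romidepsin, 227 with afatinib and 51.7 with both (log2 departure -0.77), and MKI67 departed by -0.59. CDC25B, a phosphatase that starts mitosis, was above the sum (0.75). Among 29 genes of homologous recombination and the Fanconi pathway, 12 departed lower and 1 higher (median -0.33), and 8 lower without the 4 libraries with keratin reads. BRCA2, a mediator of homologous recombination (chromosome 13, 32315086 to 32400266), stood at 35.3, 34.1 and 45.6 CPM with DMSO, 31.7, 38.0 and 34.2 with romidepsin, 37.7, 40.4 and 43.6 with afatinib and 17.4, 20.1 and 16.96 with both drugs. The single-drug libraries overlapped with DMSO and neither drug was called, whereas the combination libraries lay below all 9 (log2 departure -1.01, SE 0.15, adjusted p = 3.36e-07). NBN, of the complex that senses breaks, departed by -1.11, and RBBP8 and BRIP1, which afatinib raised alone, by -0.79 and -0.70. The brake CDKN1A was raised by romidepsin and less so with both drugs, at 297 CPM with DMSO, 1283 with romidepsin, 404 with afatinib and 1086 with both (log2 departure -0.68), and CDK4 departed by -0.89.

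Cytokine signalling of the lymphoma cells departed in both directions. Of 23 tested targets of STAT3 and STAT5, 10 departed higher and 10 lower (median -0.13). Besides OSM, the lymphotoxin gene LTA fell beyond the sum, with means of 105 CPM with DMSO, 84.1 with romidepsin, 31.8 with afatinib and 12.2 with both (log2 departure -1.07). BCL6, a repressor, was raised by romidepsin and at the DMSO level with both (-0.96). Among those higher, CISH, a feedback inhibitor of the interleukin-2 receptor, was lowered by each drug and above DMSO with both, at 324 CPM with DMSO, 231 with romidepsin, 257 with afatinib and 360.0 with both (0.98), and the kinase PIM3 departed by 0.87. Of the STAT factors, STAT5B departed by -0.36, and STAT3 had a departure of 0.13 that was not called (adjusted p = 0.179, below 0.05 with DESeq2 only). JAK1 and JAK3 were not called either (-0.14 and 0.11). In the whole list of Janus kinases and STAT factors, 8 of 18 tested genes departed lower (44.4%) and 3 higher (16.7%), with a median of -0.18. Over all tested genes the shares were 18.5% and 11.7%. IL21R, the interleukin-21 receptor, was lowered by romidepsin and above DMSO with both (1.14). IL22, with a departure of -0.05 and an SE of 0.50, had no call, and its combination mean of 90.3 CPM stood beside a sum of 91.8.

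T cell receptor genes had 7 lower and 1 higher departure among 18 tested (median -0.27). CD3G was beyond a lowered sum (-0.60). PTPRC, which encodes CD45, and CD8A departed by -0.67 and -0.81. Of 25 lineage transcription factors 8 departed lower and 4 higher. BACH2, a factor of naive and memory T cells, had means of 24.0 CPM with DMSO, 45.7 with romidepsin, 16.8 with afatinib and 12.5 with both (log2 departure -1.35), and RUNX2 had 122 CPM with DMSO, 52.1 with romidepsin, 198 with afatinib and 34.8 with both (-1.29). In bulk samples, fewer cells of a kind and less RNA per cell cannot be told apart.

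The BCL2 family, which holds both survival and death-promoting genes, lay above the sum in 8 of 18 members and below it in 3 (median 0.29), and above it in 4 without the 4 libraries with keratin reads. Anti-death members differed, with MCL1 at 0.36, BCL2L1 at 0.32 and BCL2 at -0.73. BCL2 itself was raised by afatinib and less so with both drugs, at 18.3 CPM with DMSO, 24.9 with romidepsin, 38.1 with afatinib and 31.3 with both. Of the BH3-only genes that promote death, BBC3 departed by 0.60, and BMF had the same level with romidepsin (61.1 CPM) as with both (61.7), against 7.76 with DMSO and 4.15 with afatinib (0.91). The BMF call was lost without the 4 libraries with keratin reads (0.68, adjusted p = 0.0608). BCL2L12 departed by 1.09.

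Metabolic and redox genes departed in both directions. TXNRD1, thioredoxin reductase and a target of NRF2 (chromosome 12, 104215779 to 104350307), stood at 188, 172 and 185 CPM with DMSO, 185, 207 and 179 with romidepsin, 387, 381 and 374 with afatinib and 880.4, 948 and 870.1 with both drugs. Romidepsin alone overlapped with DMSO, afatinib lay above them, and the combination was above all, 2.26 times the sum (log2 departure 1.18, SE 0.08, adjusted p = 2.37e-16). Of 18 tested NRF2 targets 5 departed higher and 7 lower, with a median of -0.56, or 0.03 with no filter beyond 1 count. All 7 lower ones were among the 16 that afatinib raised (1248 of 3003 over all tested genes). With 16 of 18 raised, this overlap was nearly fixed beforehand. Those above the sum included TKT of the pentose phosphate pathway (0.88), and those below it the ferritin gene FTL (-0.86). Among 25 genes of cholesterol synthesis and uptake, 6 departed higher and 5 lower. INSIG1, the sterol-regulated brake on this pathway, stood at 83.0, 81.7 and 83.0 CPM with DMSO, 366, 383 and 392 with romidepsin, 178, 178 and 164 with afatinib and 1433, 1486 and 1384 with both drugs. The groups did not overlap, and the combination was the highest (log2 departure 0.85, SE 0.08, adjusted p = 3.11e-12). SREBF2, the factor that drives the pathway, was raised by afatinib and below DMSO with both, at 161 CPM with DMSO, 129 with romidepsin, 283 with afatinib and 127 with both (-0.84).

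Lysosome and autophagy genes were raised by each drug in most cases, 24 of 35 by romidepsin and 27 by afatinib, and 13 departed lower and 3 higher (median -0.29). All 13 were among the 27 that afatinib raised (1248 of 3003 over all tested genes). With 27 of 35 raised and the afatinib change subtracted in the departure, this overlap is no separate result. GABARAPL1, which marks autophagosomes, had means of 1.16 CPM with DMSO, 37.2 with romidepsin, 3.46 with afatinib and 30.4 with both, where the sum gave 111 (log2 departure -1.86). Its relative MAP1LC3B was beyond the sum, with 73.4 CPM with DMSO, 243 with romidepsin, 239 with afatinib and 1138 with both (0.53). The lysosomal regulators FLCN and TFEB departed by -0.91 and -0.68.

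A list of the repressor REST, its cofactor RCOR1 and neuronal genes that REST silences in other tissues had 14 tested genes of 24. Of these 7, RCOR1 among them, lay above the sum and 1, REST itself, below it (median 0.43). The filter keeps genes that are low in most groups only where some group is high, so this median leaves out silent members. With no filter beyond 1 count, 22 members were tested, 7 lay above the sum and 1 below it, and the median was 0.17. REST was not called with either drug and fell with both, at 76.2 CPM with DMSO, 75.2 with romidepsin, 76.7 with afatinib and 51.4 with both (log2 departure -0.56). RCOR1 departed by 0.47. CPLX1, a synaptic fusion regulator, was raised by romidepsin, lowered by afatinib and above DMSO with both (0.96), and SCG2 and SYN1 belong to this list.

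The drugs' own targets departed little. EGFR, ERBB3 and ERBB4 had at most 18 counts in any library. The ERBB2 departure was -0.54 (SE 0.26, adjusted p = 0.124), which passed the threshold without DMSO replicate 3 (-0.72, adjusted p = 0.0466). Of the 11 histone deacetylase genes 4 departed higher and 2 lower. HDAC3 departed by 0.52 and HDAC10 by 1.11. HDAC1 (0.26) and HDAC2 (-0.39) were called, but HDAC1 lost its call under 13 alternatives and HDAC2 under 9. MYC had a departure of -0.15 that was not called (adjusted p = 0.119).

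The share of lower departures differed with the genomic span of the gene, described here without a test. Among protein-coding genes with a mean of at least 5 CPM, 20.5% of the 775 genes spanning up to 5 kb departed lower and 17.7% higher (median -0.02). Of the 1010 genes spanning 5 to 10 kb, 18.3% departed lower and 25.9% higher. Of the 241 genes spanning more than 320 kb, 40.7% departed lower and 4.56% higher. The median departure was 0.04 in the 5 to 10 kb bin and -0.31 in the longest, with quartiles of -0.23 to 0.33 and -0.61 to -0.02. In the intermediate bins the share of lower calls was 21.7%, 27.1%, 28.1%, 35.4% and 36.8%, in order of span. The single drugs had median changes of -0.22 and 0.13 (romidepsin) and -0.14 and 0.09 (afatinib) in the 5 to 10 kb and the longest bin. The longest genes had a median level of 26.9 CPM against 43.3 in the 5 to 10 kb bin, and the part of this level in the result was not tested. With another scaling (RLE factors) lower calls were 16.04% and 37.3% in these bins. Without the 4 libraries with keratin reads they were 15.6% and 29.05%, but 21.2% up to 5 kb, above the 17.6%, 18.7% and 18.9% of the bins from 10 to 80 kb. The long genes PRKCE, BACH2, RUNX2, PAK3 and TBL1X were lower, but they had been named above for their departures and do not stand for their bins. Higher calls made up 9.96% of the genes spanning 80 to 160 kb and 7.13% of those spanning 160 to 320 kb.

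**Figure D5:**
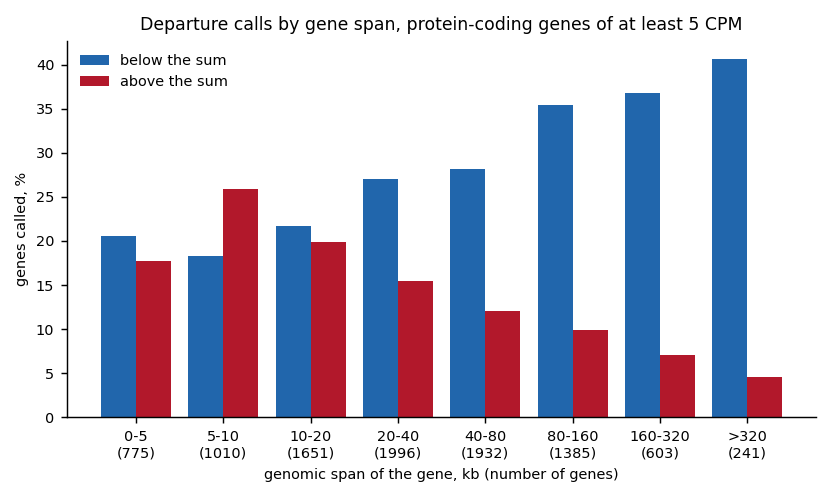
Share of protein-coding genes with a mean of at least 5 CPM whose departure was called below (blue) or above (red) the sum, in bins of genomic span in kb with the number of genes in brackets. The shortest genes have bars of 20.5% below and 17.7% above, and from 5 to 10 kb upward the blue bars go from 18.3% to 40.7% and the red bars from 25.9% to 4.56%.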

How the data were processed

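RNA was sequenced in bulk from 12 MyLa libraries, 3 in each of 4 groups. The authors deposited a table of raw counts per gene over GENCODE 31, per the file headers. The submitters' processing notes name STAR 2.7.9a, featureCounts 2.0.0 and DESeq2 1.38.1. The recorded featureCounts command sets no strand option, so overlapping genes on opposite strands share reads, and the library kit is not given in the sources used here. A second deposited table of normalized values was not used, because its entries did not follow the counts.

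Counts were filtered (filterByExpr), scaled by TMM and fitted with a mean per group in edgeR 4.0.16 (R 4.3.3, robust quasi-likelihood). All p-values were adjusted by Benjamini-Hochberg over the 16208 tested genes, with a threshold of 0.05. Log2 changes come from this fit, and CPM values are scaled by TMM. The level of the sum is the romidepsin mean times the afatinib mean, divided by the DMSO mean. A called departure is beyond, short of or opposite to the sum by the signs of the called sum and combination, and at the DMSO level where the combination is not called.

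Named genes were the 5 with the largest called departure in each of 5 classes and each direction, with a mean of at least 5 CPM, a mean of at least 1 CPM in at least 2 groups and no clone name, the 3 with the largest in each of 39 lists, and a set of drug-target and lineage genes (such as ERBB2, HDAC1, MYC, STAT3, CCL22 and IL22). Other genes were chosen after their values were seen. The members and lists were chosen with earlier results of these data known. Promoter windows are from RefSeq (GRCh38.p14), and gene coordinates are those of the count table. In a simulation of counts, 15761 genes were fitted, and known departures were set in a small part of the genes above a minimum mean count. The fit recovered 41.8% of 67 1.5-fold, 83.6% of 67 2-fold and 93.9% of 66 4-fold departures. It also called 7 unchanged genes. Counts set the precision, and levels under 3 counts were read as not countable. Other scalings, filters, tools (DESeq2 1.42.0, limma 3.58.1), a replicate block and left-out libraries were tried.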

Additional observations from a re-analysis of the deposited data

Results flagged for a closer look

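The combination minus both single drugs tests whether the effect of a drug differs with and without the other, and this difference was called in 4898 genes by edgeR. The genes in which a drug had opposite called effects are the extreme of it. Afatinib raised 372 genes alone and lowered them on top of romidepsin, with a lower departure, and it lowered 265 genes alone and raised them on top of romidepsin, with a higher departure. Romidepsin did so for 204 genes that it raised alone and for 135 that it lowered alone.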

How the results depend on the processing

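On the scale of CPM differences 254 called departures (5.19%) had the other sign, and no named gene with a call changed sign under an alternative fit. Genes above the sum numbered 1643 to 1823 and genes below it 2551 to 2973 when each library was left out in turn. The classes then held 1310 to 1531 genes beyond, 941 to 1092 short, 459 to 605 at the DMSO level, 105 to 177 opposite and 1336 to 1616 with a sum not called. The 105 opposite genes came without DMSO replicate 1. Without the 4 libraries with keratin reads, which leaves 1 DMSO library assumed to vary like the rest, 3378 genes were called and 3045 of these were among the 4898. There 791 were beyond, 644 short and 36 opposite, and 11 of 13 mitochondrially encoded messenger RNAs departed higher, where 0 did with all libraries. With a threshold of 0.01 the numbers were 1049, 685 and 79. Opposite genes numbered 113 with no filter beyond 1 count and 1116 by the signs of the estimates alone. The cause was not tested. DESeq2 called 4428 genes and limma-voom 4834, and with RLE factors 44.1% of 4789 calls were higher. A replicate block gave 4796 calls, of which 4760 were shared. Same-numbered libraries correlated by -0.23 to 0.26 and 5 of 12 matched their own number best, so the numbers were not taken as pairing. Of 5126 repeats for named genes, 4975 were rated unchanged, 140 lost a call and 11 gained one with the same sign. A sign change in a gene without a call in the main fit was rated unchanged, whatever its p-value. Depth limits the low genes. The level of the sum lay under 3 counts, at the lowest library value of 0.229 CPM, in 15 called genes at the DMSO level. So it did in 15 with a sum not called, 7 short and 1 opposite.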
